A study of Elaeis guineensis with 6 samples.

Results

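GST and LOC105054906 are a pair of antioxidant genes of oil palm, followed here through the early inflorescence of a control tree and of a completely defoliated tree. Both were taken by name, as 2 of the 32099 gene records, by a rule with no threshold on a value, though results of these data were known when the pair was chosen. GST carries its symbol in the gene table of the study. LOC105054906 has the synonym CAT2 in the RefSeq gene table of the EG11 assembly, which gives no product names, so its reading as a catalase rests on that symbol. Each has 1 record, and both were among the 18728 records tested.

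RNA-seq was done on 6 libraries of Elaeis guineensis, 1 for each combination of treatment and leaf axil. The control tree was untreated. The stress tree had been stripped of its leaves except the central unopened one, and was felled 45 days later. Inflorescences came from leaf axils -27, -20 and +5, where -27 holds the youngest and +5 the oldest inflorescence. Each treatment was applied to a single tree, which gave 3 libraries. Effects of treatment and of tree cannot be told apart, and every p-value measures only the spread between these libraries, which are leaf axils of 2 trees.

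Glutathione S-transferases join the tripeptide glutathione to reactive or toxic molecules, and many of them answer to stress and hormones in plants. Catalases split hydrogen peroxide into water and oxygen, mostly inside peroxisomes. Both belong to the systems that keep reactive oxygen species low. Plants carry many glutathione S-transferase genes and a small catalase family, and reads of near-identical copies could be shared between records, which was not tested. Other members of the families were not analysed here, since the tables used here name the products of no numbered record.

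Levels are in FPKM, fragments scaled by gene length and by the mapped fragments of the library, which allows genes of different length to be compared. The sum of FPKM per library ranged from 238672 to 268805. Sequencing depth, read from the steps of low values and set to 1.0 for control -27, lay between 0.949 and 1.19. Over all tested genes the median log2 difference of stress minus control was -0.03 (leaf axil -27), -0.06 (-20) and -0.11 (+5). A short list of genes of floral and meristem identity, not a complete one, was looked up by symbol. Of these, KNOX1 and SQUA1 reached an FPKM of 1 in all 6 libraries and GLO2 in 5. These genes are given beside the pair below. AGL6-1 passed an FPKM of 1 only in control +5. The MADS-box genes MADS2 and AG2 were listed at 0 in all 6 libraries, and AGL2-3 and DEF1 stayed below an FPKM of 1.

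The levels of GST had opposite orders along the leaf axils of the 2 trees, though -27 and -20 were nearly level under stress. Its FPKM in the control tree was 27.4 at leaf axil -27, 14.7 at -20 and 9.15 at +5. The defoliated tree had 20.4 at -27, 21.3 at -20 and 28.8 at +5. The highest level of GST was therefore in the oldest inflorescence of the defoliated tree and the lowest in the oldest inflorescence of the control tree. The FPKM at +5 was 0.333 times that at -27 in the control and 1.42 times under stress. In bulk tissue, fewer cells with a transcript and less of it per cell cannot be told apart.

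The meristem gene KNOX1 had a like order in the control, with 847.4 FPKM at -27, 480.2 at -20 and 380.5 at +5. This order in the control was found in 3709 of the tested genes (19.8%). Under stress KNOX1 had 961 FPKM at -27, 914 at -20 and 928 at +5, so that it too was highest above the control at +5. Unlike GST, KNOX1 was above the control at -27 as well, and its highest level under stress was at -27. The part of meristem tissue in the levels of GST was not tested.

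CAT2 (LOC105054906) was higher at each later leaf axil in both trees, and higher in the defoliated tree at each leaf axil. Its FPKM in the control was 4.08 at -27, 11.0 at -20 and 18.9 at +5. Under stress it was 14.9 at -27, 26.7 at -20 and 42.0 at +5. The treatments overlapped, because the control at +5 was above the stress library at -27. The FPKM at +5 was 4.63 times that at -27 in the control and 2.83 times under stress.

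Among the MADS-box genes, SQUA1 was also higher at each later leaf axil of both trees, with 5.59, 6.78 and 124 FPKM in control and 4.10, 8.43 and 149.9 FPKM in stress. GLO2 was lower under stress at each leaf axil, with control levels of 3.61, 4.86 and 7.83 FPKM and stress levels of 2.15, 0.844 and 3.51 FPKM. The part of floral stage in the levels of CAT2 was not tested.

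**Figure D1:**
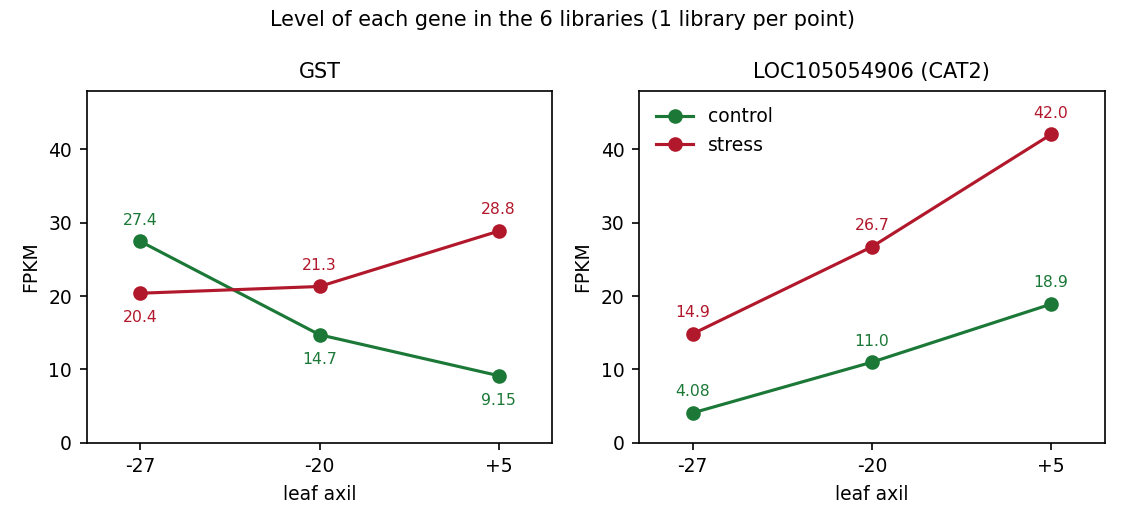
FPKM of GST (left) and LOC105054906, CAT2 (right) at leaf axils -27, -20 and +5, which are spaced evenly and not to scale, with 1 library per point and lines joining the libraries of a tree. The lines of GST cross between -27 and -20 and end at 9.15 (control) and 28.8 (stress), while those of CAT2 do not cross and end at 18.9 and 42.0.

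Within the control tree, the mean FPKM of GST over the leaf axils was 17.1 ± 9.37 (SD, n = 3), against 23.5 ± 4.64 (SD, n = 3) under stress. For CAT2 it was 11.3 ± 7.41 (SD, n = 3) in the control and 27.9 ± 13.6 (SD, n = 3) under stress. These SDs are spreads along the leaf axils of a tree. GST varied less along the defoliated tree than along the control tree, with a coefficient of variation of 19.8% against 54.8%. CAT2 varied along both, with 48.9% under stress and 65.5% in the control.

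Set against the other genes of each library, GST stood above 90.7% of tested genes at leaf axil -27 of the control and above 64.1% at +5. Under stress it stood above 86.7% at -27 and above 92.5% at +5. CAT2 stood above only 37.7% of tested genes at -27 in the control, and above 84.5% at +5. Under stress it was already above 80.2% at -27 and reached 95.7% at +5.

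Which of the 2 genes was the more abundant differed between libraries. GST had 6.72 times the FPKM of CAT2 at leaf axil -27 of the control, 1.34 times that at -20 and 0.484 times that at +5. Under stress the ratio was 1.37 at -27, 0.798 at -20 and 0.687 at +5. CAT2 was therefore the more abundant of the pair at +5 in the control, and at -20 and +5 in the defoliated tree.

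The order of the levels was set beside the residual SD of the limma fit with 4 means, the early and the +5 mean of each tree, on the scale of log2(FPKM + 1). Its sources are the differences between -27 and -20 within each tree and limma's variance prior over all tested genes, not replicates. A gap above it therefore cannot show that an order would recur. For GST this SD was 0.25, a value that the prior had lowered, since its control libraries at -27 and -20 differed by 0.85. From low to high the libraries were control +5, control -20, stress -27, stress -20, control -27 and stress +5. The stress libraries at -27 and -20 differed by 0.06 and control -27 and stress +5 by 0.07, less than the SD, and the other neighbours by 0.35 or more. For CAT2 the SD was 0.40 and the order was control -27, control -20, stress -27, control +5, stress -20 and stress +5. Stress -27 and control +5 differed by 0.33, less than the SD, and the other neighbours by at least as much as the SD.

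The comparison of stress with control at each leaf axil has 1 library on each side and no test, so a difference of at least 2-fold on the log2(FPKM + 1) scale was counted. At leaf axil -27, 1 of the 2 genes, CAT2, was at least 2-fold higher under stress, against 2.65% of all tested genes. Its FPKM was 3.64 times that of the control (log2 difference 1.64), and 99.4% of tested genes had a lower difference. GST had an FPKM 0.743 times that of the control there (log2 difference -0.41). At leaf axil -20 again only CAT2 was past 2-fold, against 2.55% of tested genes. The CAT2 ratio was 2.43 (log2 difference 1.21) and that of GST was 1.45 (log2 difference 0.50).

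At leaf axil +5 both genes were at least 2-fold higher under stress, against 5.92% of tested genes. GST had 3.15 times the FPKM of the control (log2 difference 1.56), above the difference of 98% of tested genes. CAT2 had 2.22 times (log2 difference 1.11), above that of 95.2%. The ratio of CAT2 was thus highest at -27 and that of GST at +5. CAT2 was 1 of the 136 tested genes (0.726%) that were at least 2-fold higher under stress at all 3 leaf axils. This pattern was chosen after the values of the pair were seen, so its share is a description only.

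Between stress and control over the 3 leaf axils, neither gene passed the threshold (adjusted p under 0.01 and at least 2-fold), which 0.529% of tested genes passed. The log2 fold change of CAT2 was 1.32 with a standard error of 0.54 and a 95% interval from 0.04 to 2.60 (adjusted p = 0.211, limma with Benjamini-Hochberg adjustment). That of GST was 0.55 with a standard error of 0.36 and an interval from -0.30 to 1.40 (adjusted p = 0.414, limma). This fit had no leaf axil term, so the spread along the leaf axils counted as error. A replicate block for the leaf axil left the estimates as they were, with an adjusted p from limma of 0.0216 for CAT2 and 0.377 for GST, still not past the threshold. With 1 library left out, the log2 fold change of CAT2 lay between 0.79 (without control -27) and 1.77 (without control +5), and that of GST between 0.20 (without control +5) and 0.94 (without control -27).

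**Figure D2:**
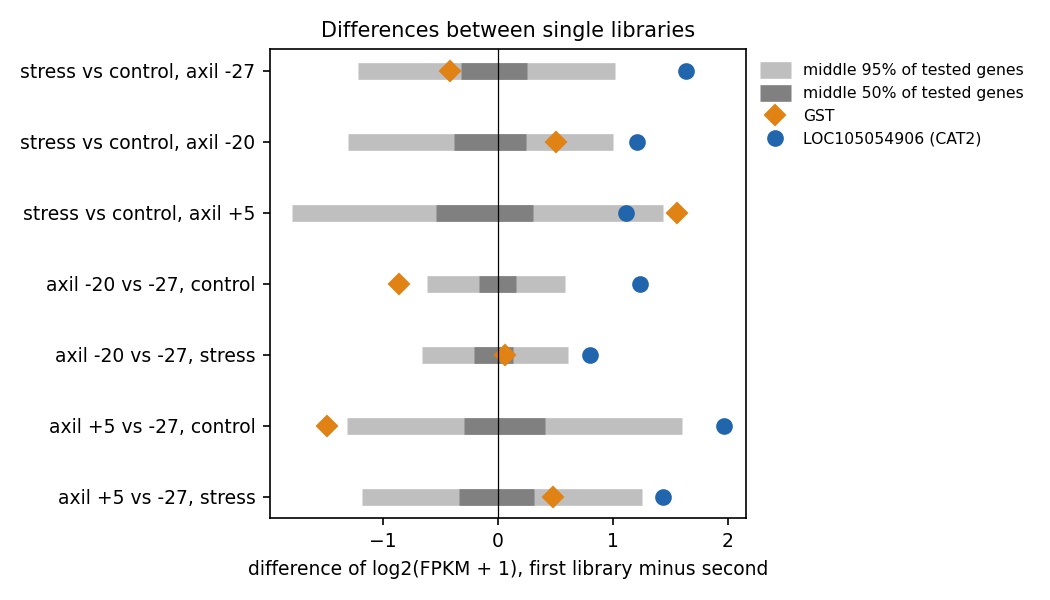
Difference of log2(FPKM + 1) between single libraries for GST (diamonds) and CAT2 (circles), with a dark bar for the interquartile range and a light bar for the middle 95% of the 18728 tested genes. CAT2 lies to the right of the light bar in all comparisons shown except stress against control at +5 (1.11), and GST lies outside it at +5 between treatments (1.56) and, on the left, along the control tree (-0.85 and -1.49).

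The levels along the leaf axils bear on the development of the inflorescence. Between leaf axils -27 and +5 of the control tree, CAT2 was at least 2-fold higher at +5 (log2 difference 1.97), as were 7.36% of tested genes. GST was at least 2-fold lower (log2 difference -1.49), as were 4.83%. In the defoliated tree CAT2 was at least 2-fold higher at +5 (log2 difference 1.44), as were 4.25% of tested genes, while GST differed by 0.48.

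With the treatment in the model, the log2 fold change of CAT2 between +5 and the mean of -27 and -20 was 1.19 with a standard error of 0.37 and a 95% interval from 0.32 to 2.07 (adjusted p = 0.0994, limma). For GST it was -0.30 with a standard error of 0.37 and an interval from -1.18 to 0.57 (adjusted p = 0.655, limma). Neither passed the threshold, which 1.45% of tested genes did. The direction of GST rested on the control library at +5, since without it the estimate was 0.45 (adjusted p = 0.378, limma), and without the stress library at +5 it was -1.06 (adjusted p = 0.0516, limma).

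Much of the difference of CAT2 along the axis lay between the early leaf axils. From -27 to -20 its log2 difference was 1.24 in the control, a value reached or passed by 48 of the 18728 tested genes, and 0.81 under stress, reached or passed by 200 genes. With the treatment in the model, the log2 fold change was 1.02 with a standard error of 0.20 and a 95% interval from 0.53 to 1.51. It had the 5th smallest p of all tested genes, but the adjusted p from limma was 1, and 0% of tested genes passed the threshold. Over all tested genes 189 (1.01%) had an unadjusted p under 0.05 in limma, and no other tool was run. GST was 0.85 lower at -20 than at -27 in the control, and 146 of the tested genes were at least as much lower. Under stress it was 0.06 higher at -20. Its joint estimate was -0.40 with a 95% interval from -1.49 to 0.70, and it was 0.32 without the control library at -27 and -1.12 without the stress library at -27.

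Whether the difference between treatments changed with the leaf axil was tested as the difference at +5 minus the mean of those at -27 and -20. For GST this was 1.51 on the log2 scale with a standard error of 0.43 and a 95% interval from 0.50 to 2.52 (adjusted p = 0.0883, limma). For CAT2 it was -0.31 with a standard error of 0.70 and an interval from -1.95 to 1.32 (adjusted p = 0.823, limma), wide enough to hold differences of either sign. Neither passed the threshold, which 0.491% of tested genes passed. Each treatment has 1 library at +5, so a gene's own error comes from the early leaf axils alone, with 2 residual degrees of freedom. The SD behind the intervals also drew on limma's variance prior over all tested genes, for 7.30 degrees of freedom in total. The -27 and -20 libraries of a tree stood as replicates, so the differences between them counted as error for both genes. From -27 to -20, CAT2 differed by 1.24 in the control and 0.81 under stress, and GST by -0.85 and 0.06. The SD behind the interval of GST was 0.25, a value that the prior had lowered, so that interval depends on the prior. The sign for CAT2 was positive without control -27 (0.31) and without stress -20 (0.09).

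**Figure D3:**
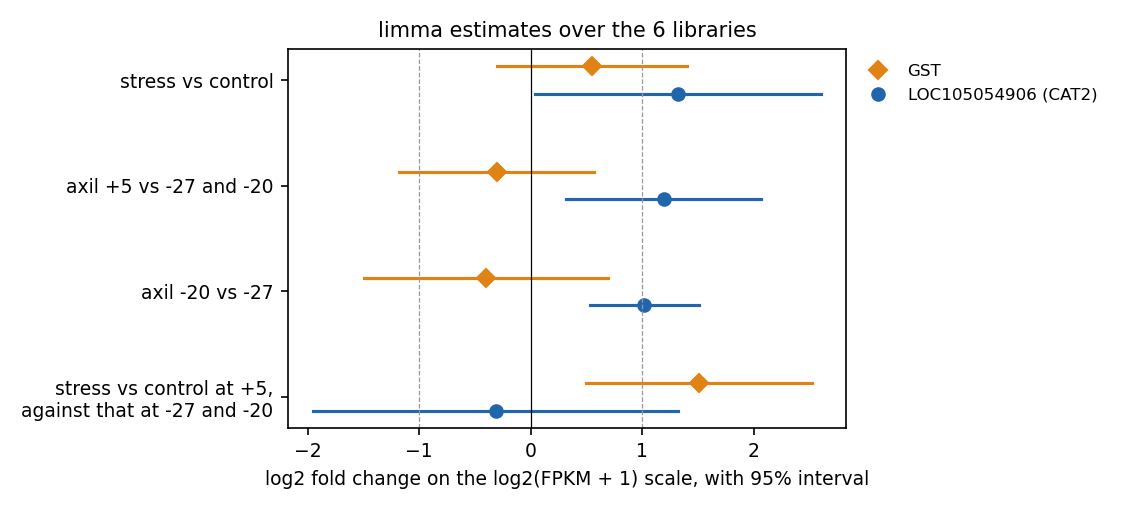
Log2 fold changes from limma with 95% intervals for GST (diamonds) and CAT2 (circles) in the 4 comparisons across all 6 libraries, with dashed lines at a 2-fold difference. The intervals of CAT2 lie above 0 in the first 3 comparisons and that of GST in the last (0.50 to 2.52), and no estimate passed the adjusted threshold.

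The order of values was also counted over all tested genes, with orders chosen after the values of the pair were seen. A level higher under stress at each leaf axil, as in CAT2, was found in 3896 genes (20.8%). A level higher at each later leaf axil of the defoliated tree, as in both genes, was found in 4012 (21.4%). A level higher at each later leaf axil in both trees was found in 1124 genes (6%), CAT2 among them. A level higher at each later leaf axil in both trees and higher under stress at each leaf axil was found in 323 genes (1.72%). A level lower at each later leaf axil in the control and higher at each later one under stress, as in GST, was found in 697 genes (3.72%). For GST the step from -27 to -20 under stress was only 0.06 on the log2 scale. The highest value in stress +5 and the lowest in control +5, again as in GST, was found in 1093 genes (5.84%).

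MnSOD (LOC105044809) was the other gene found by a search of the RefSeq symbols and synonyms for a fixed set of antioxidant names. Records without a RefSeq match were not searched. A manganese superoxide dismutase turns superoxide into hydrogen peroxide in mitochondria, while catalases act mostly in peroxisomes. The reading of LOC105044809 as such an enzyme rests on its synonym. Its FPKM was 20.3 at -27, 23.1 at -20 and 16.9 at +5 in the control, and 17.5, 14.9 and 9.01 in the same order under stress. It was lower under stress at each leaf axil, where CAT2 was higher. Its log2 fold change between stress and control was -0.55 with a standard error of 0.25 (adjusted p = 0.252, limma), and between +5 and the early leaf axils -0.56 with a standard error of 0.15 (adjusted p = 0.0756, limma). Of the 3 genes with such a name, 0 passed the threshold in any of the 4 comparisons, against 0.529%, 1.45%, 0% and 0.491% of all tested genes, so a count of 0 says little about these 3. The numbers of all tested genes at an unadjusted p under 0.05 in limma were 4191 for the treatment, 4782 for +5, 189 for -20 against -27 and 4549 for the difference between treatment effects.

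The genes most like each of the pair were those with the highest Pearson's r of log2(FPKM + 1), a description of 6 values from 2 trees. For GST they were LOC105037500, LOC105043842 and LOC105054318, each with r of 0.98 or more, and 178 tested genes had an r of at least 0.9. The closest, LOC105037500, followed GST at a smaller amplitude, with control levels of 20.02, 18.2 and 16.6 FPKM at -27, -20 and +5 and stress levels of 19.3, 19.5 and 20.2 FPKM. For CAT2 they were LOC105050961, LOC105041215 and LOC105058786, each with r of 0.99, and 230 tested genes had an r of at least 0.9. LOC105058786 had control levels of 5.19, 6.61 and 8.64 FPKM and stress levels of 7.42, 9.84 and 11.8 FPKM in the same order. The gene tables give no names for these 6 records.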

How the data were processed

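Total RNA of 6 inflorescence samples was sequenced for the authors by a service company, as read pairs on an Illumina HiSeq. The reads were aligned to the oil palm genome with HISAT2 (2.1.0) and abundances obtained with StringTie (1.3.4), per the methods and the submitters' processing notes. The authors deposited FPKM per gene and library. These values hold no read totals, and no counting intervals were computed from them.

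Tests were run with limma (3.58.1, R 4.3.3) on log2(FPKM + 1) of the 18728 records that reached an FPKM of 1 in 3 or more libraries. This scale understates changes of low genes. The variance prior of eBayes followed the mean-variance trend, with Benjamini-Hochberg adjustment over all tested records, and the criteria of the study (adjusted p under 0.01, fold of at least 2). The code was tested on simulated data. Treatments were compared without a covariate, leaf axils with the treatment as covariate, and the treatment effects over 4 means. Libraries were paired by leaf axil in the labels, and deviations from the treatment mean were correlated across genes within each pair (r = 0.211 at -27, 0.344 at -20 and 0.409 at +5). Alternatives were a pseudocount of 0.1, no filter, a filter on the mean FPKM (5 or more), quantile normalization, median centring, a prior without trend, no treatment term, a replicate block for leaf axil and each library left out in turn.

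The genes named were the pair, genes with an antioxidant symbol or synonym in the RefSeq table, and the 3 tested genes most correlated with each of the pair. The planned lists by protein similarity were not made, as no protein sequences were used here. The pair, the lists and the tests were chosen with earlier results of these data known. Identifiers were looked up by symbol in the RefSeq table of EG11, a newer assembly, which matched 89.3% of records, and no coordinates were taken from it. Python 3.11.15 with numpy 2.4.6, pandas 2.3.3 and matplotlib 3.10.9 was used for the rest.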

Additional observations from a re-analysis of the deposited data

Results flagged for a closer look

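The change of GST to leaf axil +5 differed in direction between the 2 trees. In the control tree both early libraries (27.4 and 14.7 FPKM) were above the library at +5 (9.15 FPKM), and in the defoliated tree both (20.4 and 21.3 FPKM) were below it (28.8 FPKM). The log2 change to +5 under stress minus that in the control was 1.51, and the test of this difference missed the threshold (adjusted p = 0.0883, limma). Over the alternatives with all 6 libraries its adjusted p from limma lay between 0.0701 (quantile normalization) and 0.261 (no filter). With an early library left out the estimate was 1.08 to 1.94. No p is given for those fits, since 1 of the trees then had only 1 early library. Each treatment had 1 tree, so the treatment cannot be told apart from the tree.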

How the results depend on the processing

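Of the values of GST and CAT2 recomputed under an alternative, 134 kept their direction and 4 did not, and none moved past the threshold or, where there was no test, by more than the residual SD. The reversals all came from leaving out 1 library. For GST, +5 against the early leaf axils was -1.06 to 0.45 (0.45 without control +5) and -20 against -27 was -1.12 to 0.32 (0.32 without control -27). For CAT2, the difference of treatment effects was -0.93 to 0.31 (0.31 without control -27 and 0.09 without stress -20). For that difference, leaving out early libraries was added after seeing the data, and without a library at +5 it could not be fitted. Quantile normalization and centring on medians moved stress against control from 1.32 to 1.41 in both cases for CAT2, and from 0.55 to 0.65 and 0.64 for GST. A replicate block for the leaf axil gave CAT2 the same 1.32 at an adjusted p of 0.0216 (limma), and changed no call of the pair.

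The numbers of all tested genes past the threshold moved more. Between stress and control, 99 genes became 54 without a filter, 32 at a mean FPKM of at least 5, 32 with the replicate block and 0 to 89 with a library left out. For +5 against the early leaf axils, 272 became 115, 171, 3 without the treatment term and 0 to 1204 with a library left out. For the difference of treatment effects, 92 became 31 after centring, 0 to 10 with a library left out, and 0 without a filter or a mean-variance trend (6401 and 4353 at an unadjusted p under 0.05, limma). After quantile normalization 94 genes passed, 52 positive and 42 negative, against 39 and 53 in the main fit, and whether they were the same genes was not followed. For -20 against -27 it was 0 throughout (78 to 963 at an unadjusted p under 0.05, limma). With a library left out, stress against control was 0.79 to 1.77 for CAT2 and 0.20 to 0.94 for GST. The limit that depth sets on single values was not computed here.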

Other observations

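The neighbours of the pair in the EG11 gene order were looked at as well. LOC105054904, next to CAT2, had an FPKM between 13.5 and 15.8 in the 6 libraries, within the range of CAT2. LOC105054905, on the other side of CAT2, had control levels of 1.22, 1.10 and 1.84 FPKM at -27, -20 and +5 and stress levels of 1.53, 1.96 and 3.497 FPKM, higher under stress at each leaf axil. LOC105032151, next to GST, had control levels of 6.97, 9.93 and 8.70 FPKM at -27, -20 and +5 and stress levels of 6.005, 5.03 and 5.71 FPKM, lower under stress at each leaf axil. On the other side of GST the next gene, LOC140854825, has no record in the FPKM table. The one after it, LOC105032149, had control levels of 1.99, 1.98 and 1.87 FPKM and stress levels of 3.74, 2.96 and 5.04 FPKM, higher under stress at each leaf axil. LOC105032161, the second gene on the other side of GST, passed an FPKM of 1 only in stress +5 (1.44). Of the second genes from CAT2, LOC105054902 was higher under stress at each leaf axil. LOC105054908 was lower under stress at -27 (4.04 against 4.20) and -20 (5.04 against 5.69) and higher at +5 (6.435 against 5.70). Of all tested genes, 20.8% were higher under stress at each leaf axil. The gene order is that of the newer assembly.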
